A study of Mus musculus with 27 samples.

Results

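Liver taken 24 h after partial hepatectomy from etomoxir-treated mice (PHx24_ETO, n = 4 libraries) was compared with liver of sham-operated mice (n = 5) across every expressed gene. These 9 libraries were chosen by their labels from a series of 27 libraries in 5 groups, and 12376 of the 54532 genes in the table were expressed strongly enough to be tested (at least 1 FPKM, that is fragments scaled to gene length and library size, in at least 4 of the 27 libraries). All mice were wild-type C57/BL6J. The PHx24_ETO mice lost 70% of the liver and were given etomoxir at 12.5 mg/kg into the peritoneum 4 h before the operation; the sham mice carry neither treatment and no time in their labels. Another group, liver 24 h after the same resection with no etomoxir in its label (PHx24, n = 7), is set beside them. No sham-operated mice received etomoxir, so in the comparison of PHx24_ETO with sham the resection and the drug cannot be told apart. The labels do not state a vehicle for mice that had no etomoxir, nor that each library is a separate animal. The p-values therefore reflect only how far libraries spread within groups, over all 27 libraries in the fit.

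After most of its mass is removed, the rodent liver regrows because the remaining hepatocytes, which are otherwise quiescent, re-enter the cell cycle in response to cytokines and growth factors while they keep supplying plasma proteins, bile, urea and glucose. The remnant also fills with fat from the circulation for a time. Etomoxir binds carnitine palmitoyltransferase 1 (encoded in liver by Cpt1a), the enzyme of the outer mitochondrial membrane that joins long-chain fatty acids to carnitine so that they can enter the mitochondrion and be oxidized, and blocks it.

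The 9 libraries held 14903757 to 18446372 counted reads each. Albumin took 3.84% to 7.86% of the reads in sham and 3.17% to 4.72% in PHx24_ETO, and the summed level of 8 hepatocyte markers ranged from 30740.0 to 68280.0 FPKM in sham and from 28760.0 to 39710.0 FPKM in PHx24_ETO. In bulk tissue, fewer cells of a type and less RNA per cell cannot be told apart. Sham 1 carried skeletal muscle transcripts (12 markers summed to 5100 FPKM, against 0.990 to 80.8 in the other sham libraries) and adipocyte transcripts, and sham 2 carried pancreatic transcripts (929 FPKM) and those of B and T cells. PHx24 1 and PHx48 3, a library of another group in the fit, carried transcripts of other tissues too, and results are also given without these 4 libraries where this moved them. Within PHx24_ETO, library 2 stood apart. Its log2 values correlated with those of the other 3 libraries at 0.926 to 0.936, while those 3 correlated with each other at 0.973 to 0.987 (each across genes, which are not independent), and 729 genes in library 2 lay at least 2-fold beyond all 3 others, against 194 in library 1, 37 in library 3 and 42 in library 4.

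Relative to sham, 2435 genes were higher in PHx24_ETO (19.7% of those tested) and 1927 were lower (15.6%), 4362 in all (35.2%), at an adjusted p under 0.05 (edgeR quasi-likelihood F test on counts with all 27 libraries in 1 fit, Benjamini-Hochberg adjustment). Of these, 735 rose at least 2-fold (5.94%) and 772 fell at least 2-fold (6.24%). The median size on the log2 scale was 0.68 for the rises and 0.82 for the falls. In 1380 genes (11.2%) every PHx24_ETO library was above every sham library, and in 1331 (10.8%) every one was below. For PHx24 against the same sham libraries the counts were 2366 higher (19.1%) and 1960 lower (15.8%), 4326 in all (35%). The number of rises was 1344 when only these 9 libraries entered the fit. Scaling libraries to equal totals (TPM) in place of a typical gene moved the median of all genes by 0.19 on the log2 scale and gave 3612 higher and 1092 lower by limma, so changes of less than this shift depend on the scaling. In what follows, a value in parentheses after a gene is its log2 fold change over sham unless another group is named. Counts against sham over a gene list are to be read beside the shares of all genes tested, 19.7% higher and 15.6% lower.

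The genes with the largest rises in which the groups did not overlap were Lcn2, Saa2, Sult1e1, Mt1, Saa1, Cyp4a14, Orm2, Ly6d, Uhrf1, Apoa4, Tubb2b and Mfsd2a: acute-phase and metal-binding proteins, an estrogen sulfotransferase, a fatty acid hydroxylase, an apolipoprotein, a chromatin factor of S phase, a tubulin and a lipid carrier of the membrane. Among the largest falls were Mup21 and the pseudogenes Mup-ps20, Mup-ps12, Mup-ps16 and Mup-ps13 of the major urinary proteins, and the carbonic anhydrases Car3 and Car1. The same rule named, among others, Tnnt3, Pgam2, Ldhb and Cela2a, which reached 638, 122 and 87.7 FPKM in sham 1 and, for the pancreatic elastase Cela2a, 93 FPKM in sham 2. Without sham 1 the first 3 of these did not pass the test, and the log2 fold change of Cela2a moved from -8.93 to -4.59 without sham 2. Of the skeletal muscle, adipocyte and pancreas markers, 8 of 11, 4 of 5 and 4 of 4 tested were lower in PHx24_ETO. Without sham 1 none of the muscle or adipocyte markers was called, and without sham 2 the number of pancreas markers was 2. Leaving out any single PHx24_ETO library also ended the muscle calls and left at most 1 adipocyte and 2 pancreas calls.

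**Figure D1:**
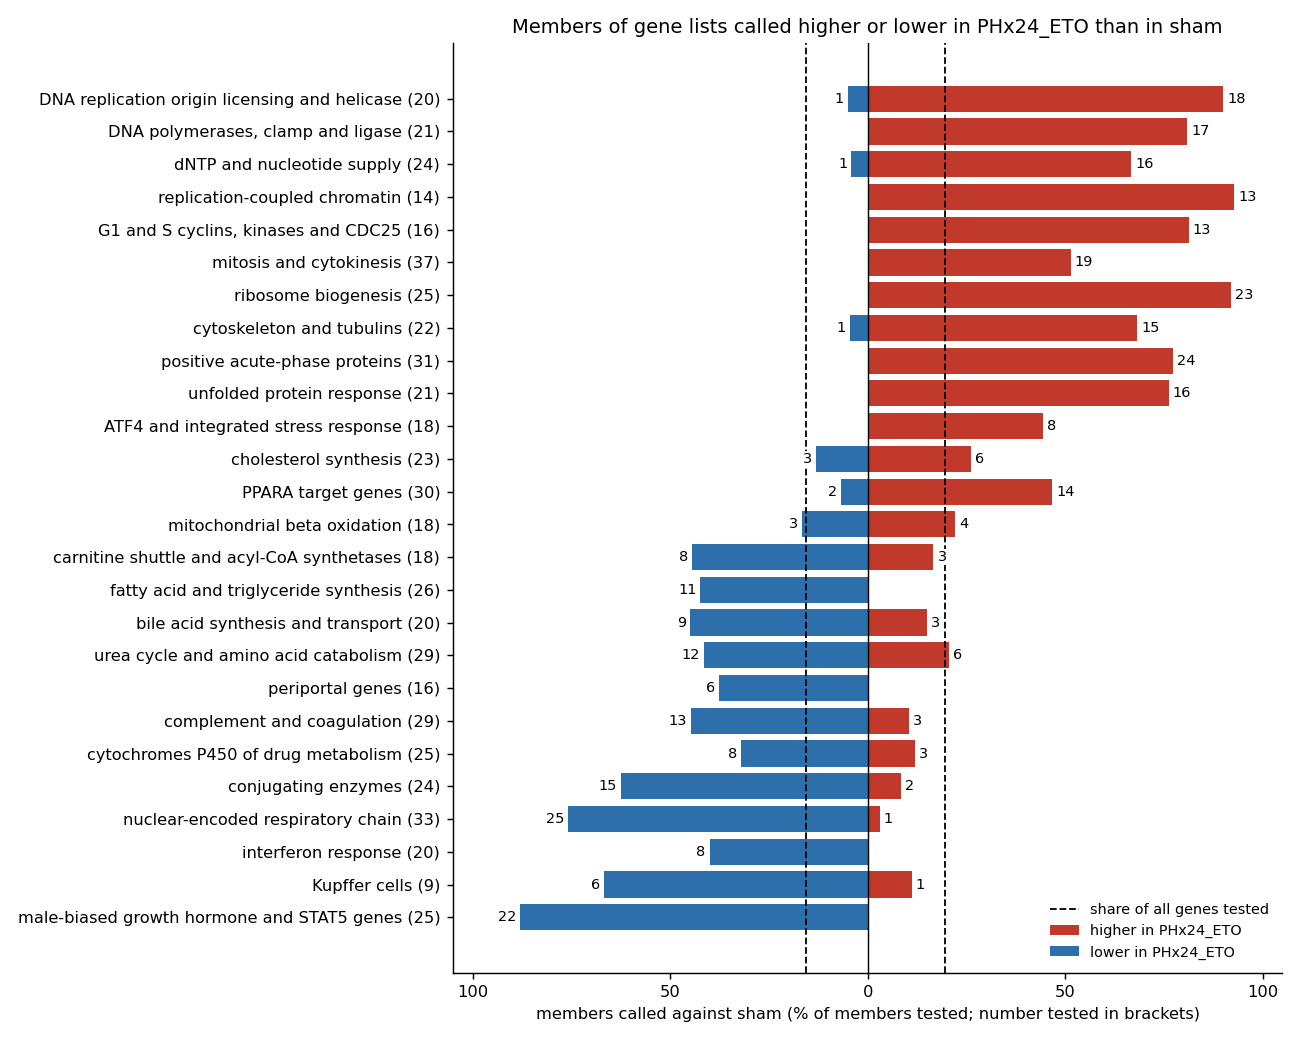
Members of each gene list called higher (to the right) and lower (to the left) in PHx24_ETO than in sham, as percent of the members tested, with the shares over all 12376 genes tested as reference lines. DNA replication, chromatin, ribosome biogenesis, acute-phase and unfolded protein response lists extend far to the right, and the male-biased growth hormone and respiratory chain lists far to the left.

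Cells enter the cycle through D and E cyclins with their kinases, which release E2F factors. E2F targets include the proteins that license replication origins (the origin recognition complex, Cdc6, Cdt1 and the Mcm helicase), the polymerases and nucleotide suppliers. Of 20 origin licensing and helicase genes tested, 18 were higher in PHx24_ETO than in sham and 1 was lower, with a median log2 fold change of 1.98 against 0.04 over all genes, and 11 showed no overlap between the groups. The gene of the helicase subunit Mcm5 (ENSMUSG00000005410, GRCm38 chromosome 8, 75109569 to 75128439) stood at 1.06, 0.864, 1.38, 0.927 and 0.592 FPKM in sham 1 to 5 and at 32.8, 1.79, 8.89 and 10.9 FPKM in PHx24_ETO 1 to 4. All 4 treated libraries were above all 5 sham libraries, library 1 highest and library 2 barely above them. The log2 fold change was 3.81 (SE 0.50, edgeR adjusted p = 4.08e-06). Uhrf1, which recruits the maintenance methyltransferase to newly made DNA, rose from 0.107 to 0.339 FPKM to 20.3, 0.387, 3.93 and 4.24 FPKM in PHx24_ETO 1 to 4, with a log2 fold change of 4.85. Again library 2 was the lowest treated library and library 1 the highest. Mcm10, an initiation factor, was called lower (-1.50, edgeR adjusted p = 0.0346), which did not hold when PHx24_ETO 2, 3 or 4 or sham 2, 3 or 5 was left out.

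Sequences around the transcription start of these genes were searched for E2F motifs, here the letters TTTCCCGC, TTTCGCGC, TTTGCCGC and TTTGGCGC on either strand. In RefSeq windows from 250 bases before to 50 bases after each start (build GRCm38.p6), 7 of the 14 licensing genes with a window held one (50%), against 412 of 8722 tested genes with a window (4.72%). The number was 6 of 18 for polymerases, clamp and ligase (33.3%), 4 of 11 for replication-coupled chromatin (36.4%), 3 of 11 for G1 and S cyclins and their kinases (27.3%) and 4 of 11 for E2F, MYB and FOXM1 factors (36.4%). For nucleotide supply it was 1 of 22 (4.55%) and for mitosis 1 of 31 (3.23%), shares near or under that of all genes. The window of Mcm5 (chr8:75109259-75109558, plus strand) and that of the second start of Uhrf1 (chr17:56304063-56304362, plus strand) are shown as those of the 2 genes whose values are given above, with the motif in capitals. In all these counts a gene with several windows was counted when any of them held a match. The window of the first start of Uhrf1 (chr17:56303087-56303386, plus strand) held no match. In the window shown the match begins 185 bases before the start. In Mcm5, matches on the given strand (153 bases before the start) and on the opposite strand (149 bases before) overlap. The Mcm5 window ends before the gene start given above (75109569), so these distances hold for the RefSeq start only. A match describes the letters and does not show that a factor binds.
Mcm5: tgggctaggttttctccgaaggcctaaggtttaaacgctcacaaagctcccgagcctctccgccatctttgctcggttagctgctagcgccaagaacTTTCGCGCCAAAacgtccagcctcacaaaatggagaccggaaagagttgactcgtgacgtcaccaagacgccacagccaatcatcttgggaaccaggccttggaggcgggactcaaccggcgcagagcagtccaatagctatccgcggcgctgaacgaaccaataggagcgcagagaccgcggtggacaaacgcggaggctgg
Uhrf1: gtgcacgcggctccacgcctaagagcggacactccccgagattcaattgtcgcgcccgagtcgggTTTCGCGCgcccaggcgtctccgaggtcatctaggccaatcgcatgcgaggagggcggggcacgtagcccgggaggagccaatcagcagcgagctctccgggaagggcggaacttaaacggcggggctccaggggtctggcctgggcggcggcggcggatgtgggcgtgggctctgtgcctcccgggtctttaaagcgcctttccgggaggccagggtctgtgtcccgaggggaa

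Of the genes of G1 and S phase cyclins, their kinases and CDC25 phosphatases, 13 of 16 were higher and none lower (median 1.15). Cyclin D1 (Ccnd1, ENSMUSG00000070348, GRCm38 chromosome 7, 144929931 to 144939925), the cyclin that growth signals induce, stood at 2.37, 2.18, 8.29, 6.03 and 4.91 FPKM in sham 1 to 5 and at 27.4, 34.1, 25.1 and 29.8 FPKM in PHx24_ETO 1 to 4. The groups were far apart and the treated libraries lay close together, library 2 being the highest. The log2 fold change was 2.63 (SE 0.36, edgeR adjusted p = 6.54e-06); the exons of Ccnd1 overlap those of another gene, whose reads cannot be told apart without strand. Cyclin E1 (Ccne1), which starts S phase, rose by 3.36 on the log2 scale, and the transcription factor gene Mybl1 by 5.08. Of 18 E2F, MYB and FOXM1 factors, 9 were higher, among them E2f1 (1.84) and Foxm1 (2.33), and 2 lower.

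In the synthesis machinery library 1 was again the highest and library 2 the lowest treated library by the median of each list. Of 21 genes of polymerases, clamp and ligase, 17 were higher and none lower (median 1.13), of 14 genes of replication-coupled chromatin 13 were higher (median 1.45), and of 24 genes of nucleotide supply 16 were higher and 1 lower (median 0.67). Pcna, the sliding clamp, was at 8.9 to 14.9 FPKM in sham and at 63, 17, 17.7 and 21.9 FPKM in PHx24_ETO 1 to 4, all above the sham range, library 1 far above it. Its log2 fold change of 1.33 (edgeR adjusted p = 0.00431) was 0.65 without library 1 (adjusted p = 0.0899), and the number of higher polymerase genes was then 10. The chromatin assembly factor Chaf1a (3.18) and the CTP synthase gene Ctps (2.48) passed under every alternative, as did Cad, the enzyme that opens pyrimidine synthesis (1.66).

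Over genes of mitosis and cytokinesis the PHx24_ETO libraries differed widely among themselves. Of 37 tested, 19 were higher than in sham (median 1.55), but only Smc2, a condensin subunit, had no overlap between groups. In library 1 all 37 lay above every sham library; in libraries 2, 3 and 4 the number was 2, 8 and 16, and in library 2 as many as 30 lay below every sham library. Mki67, which marks cycling cells, was at 0.388, 0.267, 0.369, 0.529 and 0.258 FPKM in sham 1 to 5 and at 4.54, 0.0364, 0.346 and 0.726 FPKM in PHx24_ETO 1 to 4. Library 1 was far above the sham range and library 4 above it, library 3 lay within it, and library 2 was below it. The log2 fold change of Mki67 was 1.98 (edgeR adjusted p = 0.0215) with library 1 and 0.01 without it. Ube2c, the conjugating enzyme of the anaphase-promoting complex, showed the same order, with 5.64, 0.211, 0.634 and 0.911 FPKM in PHx24_ETO 1 to 4 against 0.323 to 0.86 FPKM in sham. Its log2 fold change of 1.89 (edgeR adjusted p = 0.0265) was 0.19 without library 1, and the call was also lost without sham 1, 3 or 5. Without library 1, 4 mitosis genes were higher and 3 lower. The number higher was 25 without library 2, 11 without the 4 libraries that carried other tissue transcripts, 5 in the fit of 9 libraries and 2 with limma on log2(FPKM + 1).

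In PHx24 all 37 mitosis genes were higher than in sham, with a median log2 fold change of 3.32. Tested directly, 359 genes differed between PHx24_ETO and PHx24 (2.9%), of which 195 were higher (1.58%) and 164 lower (1.33%) in PHx24_ETO. Among the mitosis genes 6 were lower and none higher in PHx24_ETO than in PHx24: the cyclin Ccnb2, the kinase Aurka, the motors Cenpe and Kif23, and Ube2c and Nusap1. For Ube2c the 7 PHx24 libraries ran from 2.12 through a median of 7.13 to 14 FPKM, and PHx24_ETO 1 lay within that range and the other 3 below it. The difference was -2.13 on the log2 scale (edgeR adjusted p = 0.0386). It missed the threshold without any one of PHx24_ETO 2, 3 or 4 or of PHx24 3, 4, 6 or 7. None of the licensing, polymerase or nucleotide genes passed the test between the resected groups with and without etomoxir; the 20 licensing genes tested had a median log2 fold change over sham of 1.98 with etomoxir and 2.35 without it. H2afz, Cdc25b and Cdc25c were lower in PHx24_ETO than in PHx24, as was Cdkn2d, a CDK4/6 inhibitor (-1.75, edgeR adjusted p = 0.0106).

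The promoter of Ube2c is shown as one of the 23 of 31 mitosis genes with a RefSeq window (74.2%) that held the letters TTTGAA, the cell cycle homology region motif, on either strand. Over all tested genes with a window the number was 1268 of 8722 (14.5%). In Ube2c (chr2:164769679-164769978, plus strand) the match, in capitals, is on the opposite strand, 29 bases before the start. For origin licensing genes it was 4 of 14 (28.6%), and for polymerases, clamp and ligase 2 of 18 (11.1%). CCAAT, on either strand, was found for 23 of the 31 mitosis genes as well (74.2%, against 43.3% of all tested genes with a window).
Ube2c: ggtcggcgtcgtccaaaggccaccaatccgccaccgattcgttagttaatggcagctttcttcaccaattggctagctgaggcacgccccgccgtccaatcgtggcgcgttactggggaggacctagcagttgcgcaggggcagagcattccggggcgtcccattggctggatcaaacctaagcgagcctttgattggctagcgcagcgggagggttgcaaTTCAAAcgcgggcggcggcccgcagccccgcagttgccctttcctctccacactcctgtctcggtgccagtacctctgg

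**Figure D2:**
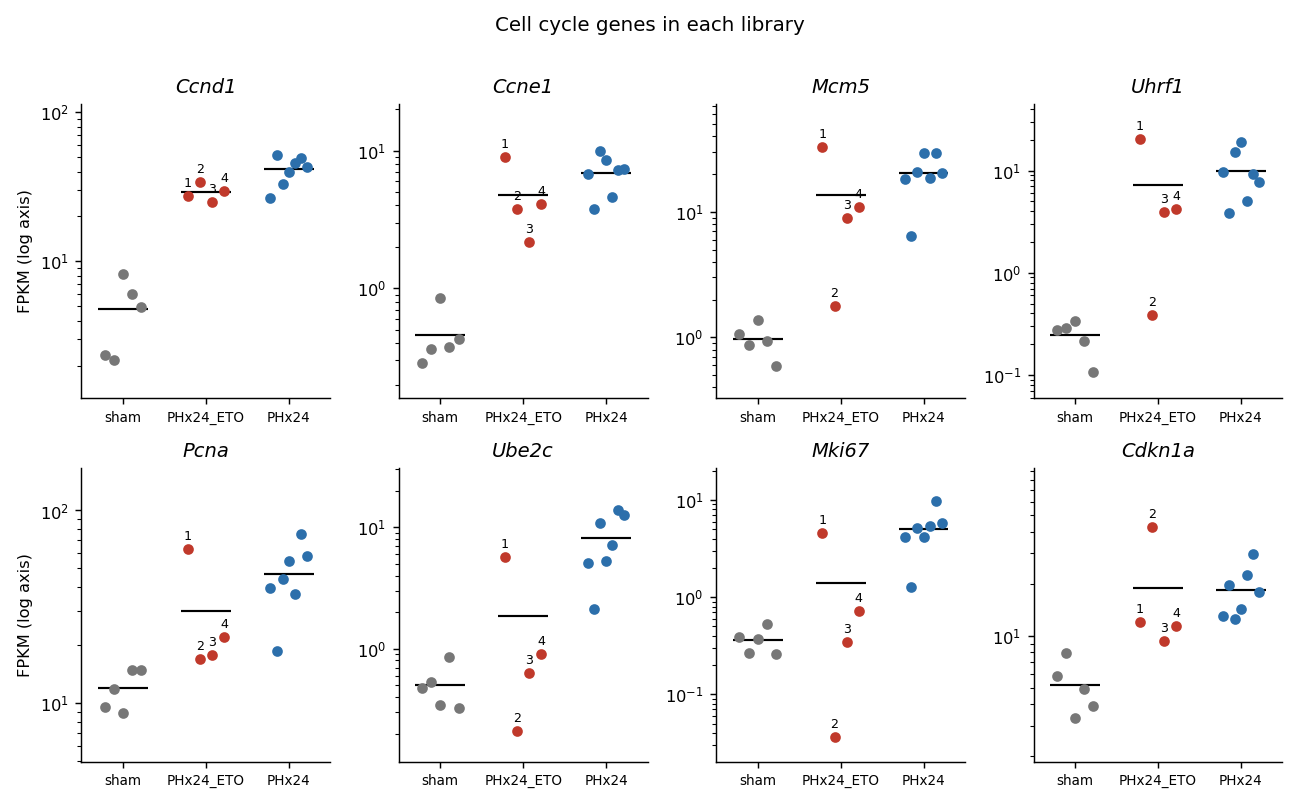
FPKM (log axis) of 8 cell cycle genes in each sham, PHx24_ETO and PHx24 library, with PHx24_ETO libraries numbered 1 to 4 and a bar at each group mean. Ccnd1 lies high in all 4 PHx24_ETO libraries, whereas Mki67 and Ube2c lie within the PHx24 range in library 1 alone, the other 3 libraries lying below it.

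Of 20 CDK inhibitors and p53 target genes, 6 were higher and 3 lower (median 0.02), against 19.7% and 15.6% of all genes tested. Cdkn1a (p21), which restrains cyclin-dependent kinases, was at 12.1, 42.7, 9.34 and 11.4 FPKM in PHx24_ETO 1 to 4 and 3.35 to 7.9 FPKM in sham. All treated libraries were above sham and library 2 was far above the others, so that the log2 fold change was 1.85 with it and 1.07 without it. Myc reached 14.8 FPKM in library 2 and about 3 in the other 3, and did not pass the test (1.14, edgeR adjusted p = 0.111).

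Building a new cell also takes ribosomes and cytoskeleton. Of 25 ribosome biogenesis genes, 23 were higher and none lower (median 0.73; 20 higher in PHx24), 15 of them without overlap; without the 4 libraries that carried other tissue transcripts and PHx24_ETO 2 it was 14. The nucleolar proteins Rrp12 (1.33) and Nop58 (1.27) were among them. Here library 2 was the highest, with a median difference from the sham mean of 0.998 on the log2(FPKM + 1) scale, against 0.56, 0.50 and 0.46 in libraries 1, 3 and 4. Of 22 cytoskeleton genes 15 were higher and 1 lower. The tubulin gene Tubb5 rose in every treated library, from 19.9 to 23.8 FPKM to 70.4 to 89 FPKM (1.89, edgeR adjusted p = 8.68e-11), and Tubb2b rose by 4.60. Of 23 proteasome and chaperonin genes, 11 were higher on the TMM scale and 21 with equal totals.

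**Figure D3:**
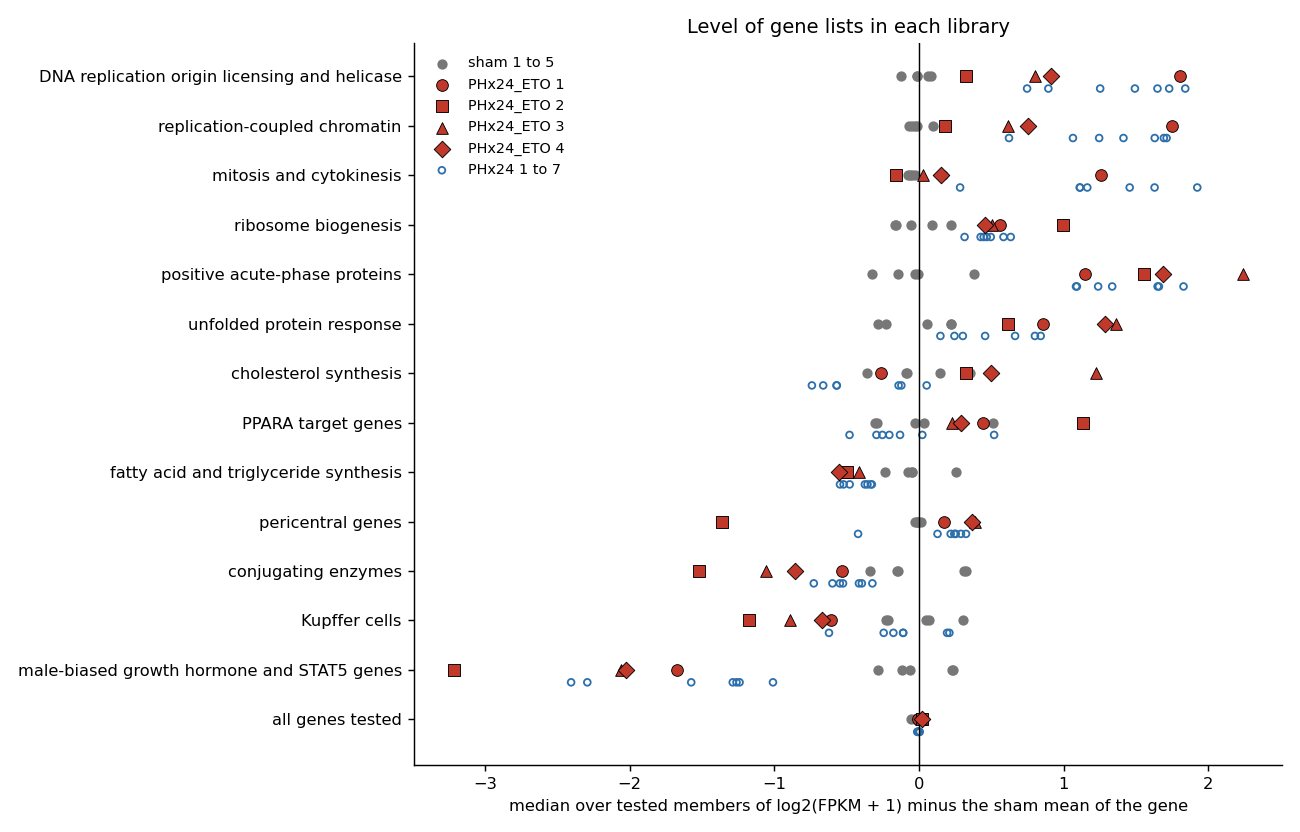
Median over the members of each list of log2(FPKM + 1) minus the sham mean, for each library of the 3 groups. The PHx24_ETO libraries, each with its own marker shape, spread from -0.16 to 1.26 for mitosis, with library 1 at the top, and library 2 lies lowest for the pericentral, conjugating enzyme and male-biased lists.

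In the acute phase hepatocytes answer interleukin-6 and interleukin-1 by secreting defence and scavenger proteins. Of 31 positive acute-phase genes tested, 24 were higher in PHx24_ETO and none lower (median 1.94), 17 without overlap. Lipocalin 2 (Lcn2, ENSMUSG00000026822, GRCm38 chromosome 2, 32384633 to 32388252), which binds bacterial siderophores, was at 1.31, 1.39, 2.93, 3.5 and 1.69 FPKM in sham 1 to 5 and at 651, 745, 1102 and 1065 FPKM in PHx24_ETO 1 to 4. The treated libraries lay far above every sham library (8.70 on the log2 scale, SE 0.46, edgeR adjusted p = 2.28e-12). Serum amyloid A genes Saa2 (8.41) and Saa1 (6.36) and the orosomucoid Orm2 (5.10) followed; reads of these near-identical families may be shared between copies. In PHx24 the list gave 23 higher and a median of 1.90.

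Beyond PHx24, 5 acute-phase genes were higher in PHx24_ETO: the fibrinogen chains Fga, Fgb and Fgg (log2 differences from PHx24 of 1.24, 1.25 and 1.10), the serpin Serpina3m and the metallothionein Mt1. The 3 fibrinogen genes had log2 fold changes over sham of 1.40, 1.26 and 1.09 with etomoxir, while in PHx24 none exceeded 0.16. Fga was at 2065, 5981, 6087 and 5704 FPKM in PHx24_ETO 1 to 4, 1169 to 2449 FPKM in sham and, in PHx24, from 1529 through a median of 2147 to 2861 FPKM, so that library 1 lay inside the range of both other groups and the other 3 above them. Serpina3m was at 89.8, 88.7, 92.5, 109.9 and 113 FPKM in sham 1 to 5, at 336, 848, 777 and 783 FPKM in PHx24_ETO 1 to 4 and, in PHx24, from 263 through a median of 363 to 389.6 FPKM. For Serpina3m too library 1 of PHx24_ETO lay inside the PHx24 range. The difference from PHx24 was 1.0 on the log2 scale (edgeR adjusted p = 0.00353). The exons of Serpina3m overlap those of the gene Serpina3k, so reads of the shared stretch cannot be told apart. Mt1, which binds zinc and copper, rose by 6.53 over sham; its difference from PHx24 (2.64) was not called without library 2.

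Among the receptors and transducers upstream, 7 of 17 genes of interleukin-6, interleukin-1 and STAT3 signalling were higher. They included the feedback inhibitor Socs3 (1.92), the interleukin-1 receptor Il1r1 (1.54) and Stat3 (0.77). Another 3 were lower, among them the leukemia inhibitory factor receptor Lifr (-2.19), a share near that of all genes tested (15.6%). Of 19 immediate early factors, 8 were higher, among them Atf3 (2.42) and Egr1 (1.93), and 2 lower; without library 2, 5 were higher. Of 21 growth factor ligands and receptors 5 were higher, including hepatocyte growth factor Hgf (1.23) and the stress hormone Gdf15 (3.49), and 4 lower, including the growth hormone receptor Ghr (-1.19) and Igf1 (-0.59); these shares are near those of all genes tested (19.7% higher and 15.6% lower), with a list median of -0.08.

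Kupffer cells are the resident macrophages of the liver sinusoids. Of 9 of their markers, 6 were lower in PHx24_ETO and 1 higher (median -0.98), and the 9 summed to 79.2 to 137.5 FPKM in PHx24_ETO, 150 to 238 FPKM in sham and 135.7 to 256.4 FPKM in PHx24, in which none was lower and 1 was higher than in sham (median -0.13). Clec4f, a lectin receptor of these cells in mouse, was at 26.3, 37.8, 47.3, 43.3 and 37.6 FPKM in sham 1 to 5 and 14.4, 6.37, 12.8 and 14.9 FPKM in PHx24_ETO 1 to 4, with no overlap (-1.66, edgeR adjusted p = 0.000425). Timd4, Vsig4 and the complement C1q genes fell by 0.93 to 1.16 on the log2 scale. Marco, a scavenger receptor, went the other way, from 1.66 to 4.03 FPKM to 13.7 to 22 FPKM (2.78). In the direct test between PHx24_ETO and PHx24 1 of the 9 was called, the macrophage protein gene Cd5l, so a difference between the resected groups was not shown for the others.

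Of 9 sinusoidal endothelium markers 4 were lower, among them Kdr (-1.38), and the sum was 19.4 to 31.1 FPKM in PHx24_ETO against 38.9 to 50.7 FPKM in sham; without library 2 the number was 2. All 5 erythroid markers tested were lower (90.2 to 174.9 FPKM summed against 262.9 to 852), but the number was 2 without PHx24_ETO 2, PHx24_ETO 4 or sham 2, 3 without sham 1, and 1 without the 4 libraries that carried other tissue transcripts. Interferon response genes showed 8 of 20 lower and none higher (median -0.72), led by Ifit3 (-1.87) with Irf7, a transcription factor of the response, at -1.20; without the 4 libraries and PHx24_ETO 2 the number was 5. In PHx24 10 of these were lower and 1 higher. Of 14 chemokines and adhesion molecules 6 were higher and 3 lower, and without the 4 libraries 3 were higher. Cxcl1 (3.52) and Ccl2 (2.71), which draw neutrophils and monocytes, rose, and Ccl5 (-2.92) and Cxcl9 (-2.41), which draw T cells, fell; T and NK cell markers were too low to be tested, and sham 2 carried T cell transcripts.

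Fatty acids are activated to acyl-CoA, moved across the mitochondrial membranes as carnitine esters by Cpt1a, the translocase Slc25a20 and Cpt2, and shortened by the dehydrogenases of beta oxidation. Transcripts of the drug's target did not pass the test against sham. Cpt1a (ENSMUSG00000024900, GRCm38 chromosome 19, 3323301 to 3385732) was at 46.2, 54.4, 76.3, 53.3 and 90.9 FPKM in sham 1 to 5 and at 86.9, 83.7, 51.3 and 56.7 FPKM in PHx24_ETO 1 to 4, the ranges overlapping (0.13, SE 0.18, edgeR adjusted p = 0.622). In PHx24 it ran from 35.1 through a median of 40.8 to 46.3 FPKM, and PHx24_ETO was higher than PHx24 by 0.75 (edgeR adjusted p = 0.0175), which did not pass without library 2 (adjusted p = 0.0736). Cpt2 was at 0.27 (edgeR adjusted p = 0.115), and the muscle form Cpt1b was too low to be tested. An RNA level says nothing of the activity of the inhibited enzyme.

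Of 18 genes of the carnitine shuttle and acyl-CoA synthetases, 3 were higher and 8 lower in PHx24_ETO (median -0.45). In PHx24 1 was higher and 8 were lower. The rises in PHx24_ETO were a smaller share than over all genes tested (19.7%). The plasma membrane carnitine carrier Slc22a5 went from 6.04, 7.48, 6.67, 4.92 and 8.02 FPKM in sham to 15.5, 21.9, 11.1 and 15.6 FPKM in PHx24_ETO 1 to 4 (1.27), and was above PHx24 by 0.78, which was not called without library 2. Slc27a4 (0.81) and Slc25a20 (0.33) were the other rises; without library 2 the number was 1. Falls included the bile acid and fatty acid CoA ligase Slc27a5 (-1.35), the long-chain synthetase Acsl1 (-1.23) and Bbox1 (-1.01), which makes carnitine. Within the mitochondrion, 4 of 18 beta oxidation genes were higher, led by the long-chain dehydrogenase Acadl (0.68), and 3 lower, with a median of 0.01 against -0.23 and no rise in PHx24; with equal totals 7 were higher, and without PHx24_ETO 4, sham 2 or sham 3 the number was 2. These shares are near those of all genes tested. Of 22 peroxisomal genes 7 were lower, among them catalase Cat (-1.32), and 3 higher, the rises a smaller share than over all genes tested (19.7%). In PHx24 8 of the peroxisomal genes were lower and none higher.

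PPARA is the nuclear receptor that fatty acids activate and that switches on their oxidation. Of 30 of its target genes, 14 were higher and 2 lower in PHx24_ETO (median 0.60), while in PHx24 3 were higher and 9 lower (median -0.16). Cyp4a14, a fatty acid hydroxylase, was at 2.86, 0.822, 6.92, 15.5 and 47.5 FPKM in sham 1 to 5 and 344, 593, 485 and 581 FPKM in PHx24_ETO 1 to 4, above every sham library (5.12, edgeR adjusted p = 1.96e-05; 4.04 in PHx24). Tested between the resected groups, 5 targets were higher with etomoxir and none lower: Angptl4, Cpt1a, Pex11a, Slc25a20 and Retsat. Retsat, which saturates retinol, was at 42.7, 61.8, 66.7, 79.1 and 101 FPKM in sham 1 to 5, 118, 231, 174 and 203 FPKM in PHx24_ETO 1 to 4 and from 54.5 through a median of 76 to 111 FPKM in PHx24. The treated libraries lay above every other library of the 3 groups, by 1.25 over PHx24 (edgeR adjusted p = 0.00165). Ppara itself was at -0.12 (edgeR adjusted p = 0.741). The count of 14 was 7 without library 2, 9 without sham 4 and 7 in the fit of 9 libraries, and library 2 had a median difference from sham of 1.13 over this list against 0.44, 0.23 and 0.29 in libraries 1, 3 and 4.

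Several fasting and droplet genes were high in library 2. The droplet coat gene Plin2 was at 96, 97.3, 158, 148 and 322 FPKM in sham 1 to 5 and 169, 919, 167 and 187 FPKM in PHx24_ETO 1 to 4, so that libraries 1, 3 and 4 lay within the sham range and library 2 far above it. Its log2 fold change of 1.15 (edgeR adjusted p = 0.0269) was 0.10 without library 2, and the call was also lost without any one of sham 1 to 4. The hepatic hormone Fgf21 (2.91, then 1.60) and Plin4 (2.38, then -0.06) likewise missed the threshold without it, and also without any one of sham 1 to 4 for Fgf21 and of sham 2 to 5 for Plin4. Pdk4, which restrains pyruvate oxidation, was high in library 2 (71.7 FPKM) and in sham 1 (62.6 FPKM), the sham library with muscle transcripts, and was below 7 FPKM in the other 7 libraries. Over the droplet and lipolysis list 6 of 20 genes were higher and 7 lower, but the number higher was 1 without library 2. The carboxylesterase Ces1d, which mobilizes stored triglyceride, fell by 2.80 (edgeR adjusted p = 4.64e-06).

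Of 26 genes of fatty acid and triglyceride synthesis, 11 were lower and none higher in PHx24_ETO (median -0.60), and 12 were lower in PHx24 (median -0.57); with equal totals 7 were lower in PHx24_ETO. Scd1, which makes monounsaturated fatty acids, was at 659, 842, 665, 1320.0 and 1723 FPKM in sham 1 to 5 and 214, 278, 79.98 and 85 FPKM in PHx24_ETO 1 to 4. Every treated library was below every sham library (-2.65, edgeR adjusted p = 0.000247). The elongase Elovl3 was at -3.43, and Srebf1, the lipogenic transcription factor, was at -1.10 with etomoxir and 0.34 without it. Fasn, the synthase itself, did not pass the test (-0.69, edgeR adjusted p = 0.122).

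Of 22 genes of lipid uptake and lipoprotein assembly, 3 were higher and 7 lower than in sham, and 4 were higher and 1 lower than in PHx24. Apoa4, a component of triglyceride-rich particles, rose from 18.5, 126, 27.6, 22.9 and 25.3 FPKM in sham 1 to 5 to 1115, 1183, 1169 and 1465 FPKM in PHx24_ETO 1 to 4. Sham 2, with pancreatic transcripts and the highest sum of gut epithelium markers among sham libraries (236 FPKM), was the high sham library. It lay below all treated ones, and why it was high was not tested. The log2 fold change was 4.80 over sham and 1.78 over PHx24 (edgeR adjusted p = 0.0305), the latter lost without PHx24_ETO 2, 3 or 4 or PHx24 3, 4, 6 or 7. Among the falls was Lipc, hepatic lipase (-1.62). Lipc was lower than in PHx24 as well (-0.72, edgeR adjusted p = 0.00879).

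**Figure D4:**
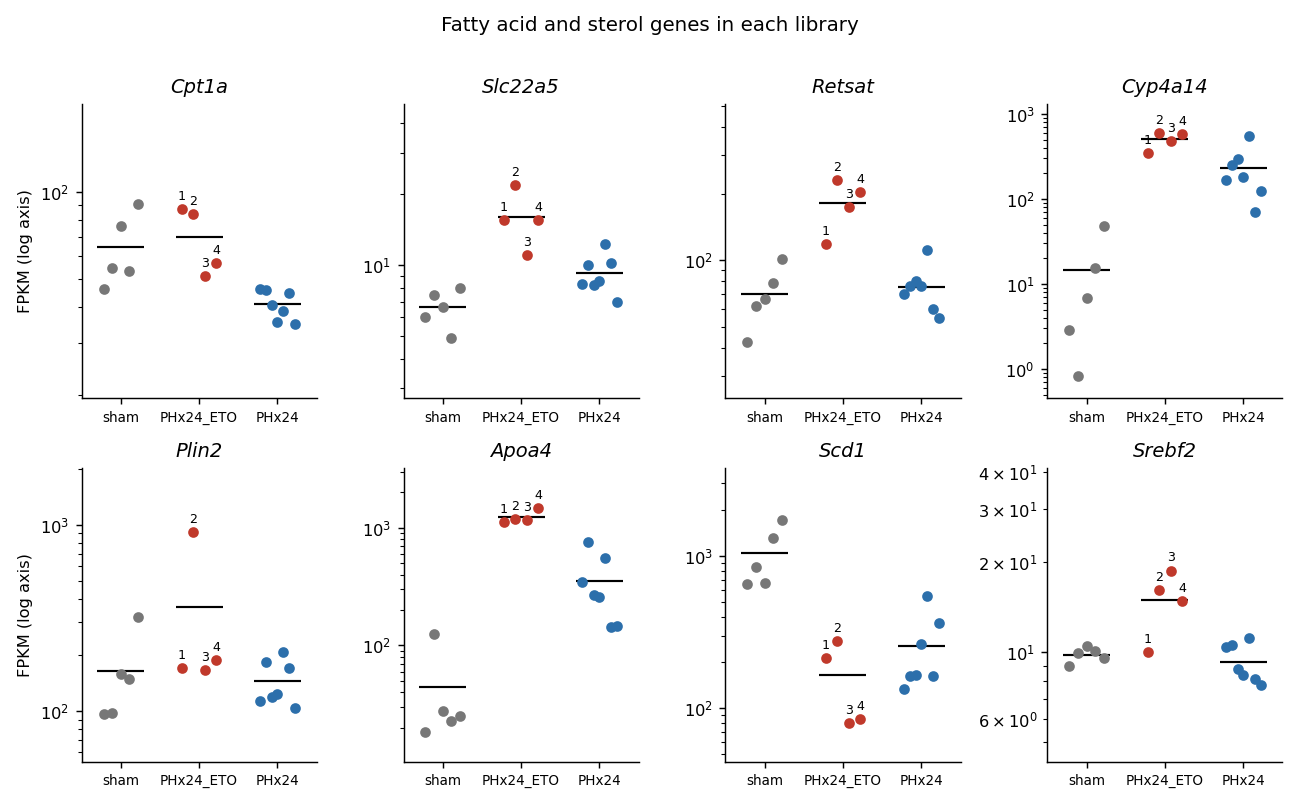
FPKM (log axis) of 8 lipid genes in each sham, PHx24_ETO and PHx24 library, with PHx24_ETO libraries numbered 1 to 4 and a bar at each group mean. Cpt1a overlaps between sham and PHx24_ETO, Retsat and Slc22a5 lie above sham in all 4 PHx24_ETO libraries, and Plin2 lies above the sham range in library 2 alone.

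Cholesterol is made from acetyl-CoA by enzymes that SREBP2 (Srebf2) controls. Of 23 genes of the pathway, 6 were higher and 3 lower than in sham (median 0.60). These shares are near those of all genes tested (19.7% higher and 15.6% lower). In PHx24 1 was higher and 4 were lower than in sham (median -0.42). In the direct test 9 were higher in PHx24_ETO than in PHx24 and none lower. Among these were Srebf2 and the enzyme genes Fdps, Fdft1, Sqle, Lss, Msmo1 and Hsd17b7. Srebf2 was at 8.96, 9.97, 10.5, 10.1 and 9.55 FPKM in sham 1 to 5, 10.04, 16.1, 18.8 and 14.8 FPKM in PHx24_ETO 1 to 4 and from 7.75 through a median of 8.81 to 11.2 FPKM in PHx24. Libraries 2, 3 and 4 lay above every sham and PHx24 library, and library 1 lay within both ranges. The log2 fold change was 0.60 over sham (edgeR adjusted p = 0.00145) and 0.66 over PHx24 (adjusted p = 0.00741). The libraries differed: the median difference from sham over the pathway was -0.26 in library 1, 0.32 in library 2, 1.22 in library 3 and 0.50 in library 4, and the number higher than sham was 10 without library 1, 3 without library 3 and 2 without the 4 libraries that carried other tissue transcripts.

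The unfolded protein response raises the chaperones and folding enzymes of the endoplasmic reticulum, where secreted proteins mature. Of 21 genes, 16 were higher in PHx24_ETO and none lower (median 1.02), 14 without overlap, against 12 higher and 1 lower in PHx24 (median 0.50). Calreticulin (Calr), which holds glycoproteins until they fold, was at 225, 264, 306, 282 and 291 FPKM in sham 1 to 5 and 569, 464, 800.1 and 807 FPKM in PHx24_ETO 1 to 4. No treated library overlapped sham (1.27, edgeR adjusted p = 1.41e-07). The chaperone Hspa5 (1.26) and Creld2 (2.30) rose with it. Above PHx24 were 6 of the list, Hsp90b1, Calr, Pdia4, Creld2, Herpud1 and Derl3, and none was below. Derl3, which feeds misfolded proteins to degradation, was at 2.02 over sham and 1.83 over PHx24 (edgeR adjusted p = 0.0228); this call and that of Calr over PHx24 (0.50, adjusted p = 0.0264) were lost without PHx24_ETO 3 or 4 or PHx24 3 or 4. Of 18 targets of ATF4, the factor of the integrated stress response, 8 were higher and none lower, including the serine synthesis gene Psat1 (2.79) and Ddit3 (0.92).

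Pulsatile growth hormone acting through STAT5 keeps a male-biased set of genes high in hepatocytes. The list used here joins such genes with other growth hormone and STAT5 genes, Igf1 and Socs2 among them. Of its 25 genes tested, 22 were lower in PHx24_ETO and none higher (median -2.48), 21 without overlap. In PHx24 21 were lower (median -1.51). Of 7 female-biased genes tested, 2 were higher and none lower (median 1.25), and in PHx24 3 were higher. Car3, a cytosolic carbonic anhydrase, was at 1035, 1107, 925, 1581 and 1580.0 FPKM in sham 1 to 5 and 108, 25.7, 20.8 and 16.2 FPKM in PHx24_ETO 1 to 4. All treated libraries were far below sham and library 1 was the least reduced (-4.85, SE 0.73, edgeR adjusted p = 1.85e-05; -3.60 in PHx24). Ugt2b1, a glucuronosyltransferase, fell from 349.6 to 524 FPKM to 90.9, 28.1, 27.6 and 38.1 FPKM, a log2 fold change of -3.19, with a log2 difference from PHx24 of -1.57 (edgeR adjusted p = 0.0139, lost without PHx24_ETO 2 or 3). Major urinary protein genes fell, Mup21 to a log2 fold change of -5.11 and the pseudogene Mup-ps13 to -4.58; Mup-ps20 had no read in any PHx24_ETO library and was at least 51.3-fold lower than its sham mean of 24.6 FPKM, taking a floor of 3 counts per library. Reads of this family can be assigned to the wrong copy. Library 4 kept 40.7 FPKM of Mup21 and 406 FPKM of Mup10, while the other 3 had at most 4.52 and 2.03 FPKM. Cebpa, a factor that maintains hepatocyte identity, was at -1.27 in PHx24_ETO and -1.46 in PHx24, lowest in library 2. It belongs to a list of 25 hepatocyte transcription factors, of which 4 were higher and 3 lower than in sham (median 0.09). Those are smaller shares than over all genes tested.

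Among enzymes of drug metabolism, the conjugating enzymes and the cytochromes P450 were counted apart. Of 24 conjugating enzymes 15 were lower and 2 higher (median -1.12), against 13 lower and 4 higher in PHx24 (median -0.47). Of 25 cytochromes P450 8 were lower and 3 higher (median -0.58), whereas in PHx24 8 were higher and 6 lower (median 0.25). In the direct test against PHx24, 6 conjugating enzymes and 5 cytochromes P450 were lower in PHx24_ETO and none higher. Cyp2f2, a periportal P450, was at 381, 611, 606, 711 and 719 FPKM in sham 1 to 5, at 181, 79.5, 90.04 and 118 FPKM in PHx24_ETO 1 to 4, and from 154 through a median of 228 to 308 FPKM in PHx24. Each treated library was below each sham library (-2.36, edgeR adjusted p = 1.68e-07), and the difference from PHx24 was -0.97 (adjusted p = 0.019, lost without library 2 or 3). The inducible Cyp2b10 rose by 3.16, and by 3.25 in PHx24.

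NRF2 switches on detoxifying and antioxidant genes, among them glutathione transferases. Gstm3 was at 91.3, 108, 58.4, 59.2 and 38.8 FPKM in sham 1 to 5, 147, 192, 33 and 53.6 FPKM in PHx24_ETO 1 to 4, and from 564 through a median of 872 to 2053 FPKM in PHx24. The difference from sham was not called (0.57, edgeR adjusted p = 0.38), and the log2 difference from PHx24 was -3.53 (adjusted p = 0.00165). Gstm1, Gstm2, Gstp1 and Ephx1 were lower than in PHx24 as well, and none of the 22 genes was higher. Gstp1 was also below sham (-1.71, edgeR adjusted p = 2.55e-07). Against sham, 9 NRF2 targets were higher, including Nqo1 (1.42) and Srxn1, and 4 lower, the falls a share near that of all genes tested (15.6%). The number higher was 5 without library 2, and the number lower was 2 without PHx24_ETO 3 or sham 2, 4 or 5. Srxn1, which repairs peroxiredoxins, was at 32.1, 358, 31.5 and 32.5 FPKM in PHx24_ETO 1 to 4 and 13.3 to 18.6 FPKM in sham, with library 2 far above the rest (2.83, and 1.0 without it). Gstm genes are near-identical and can share reads.

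**Figure D5:**
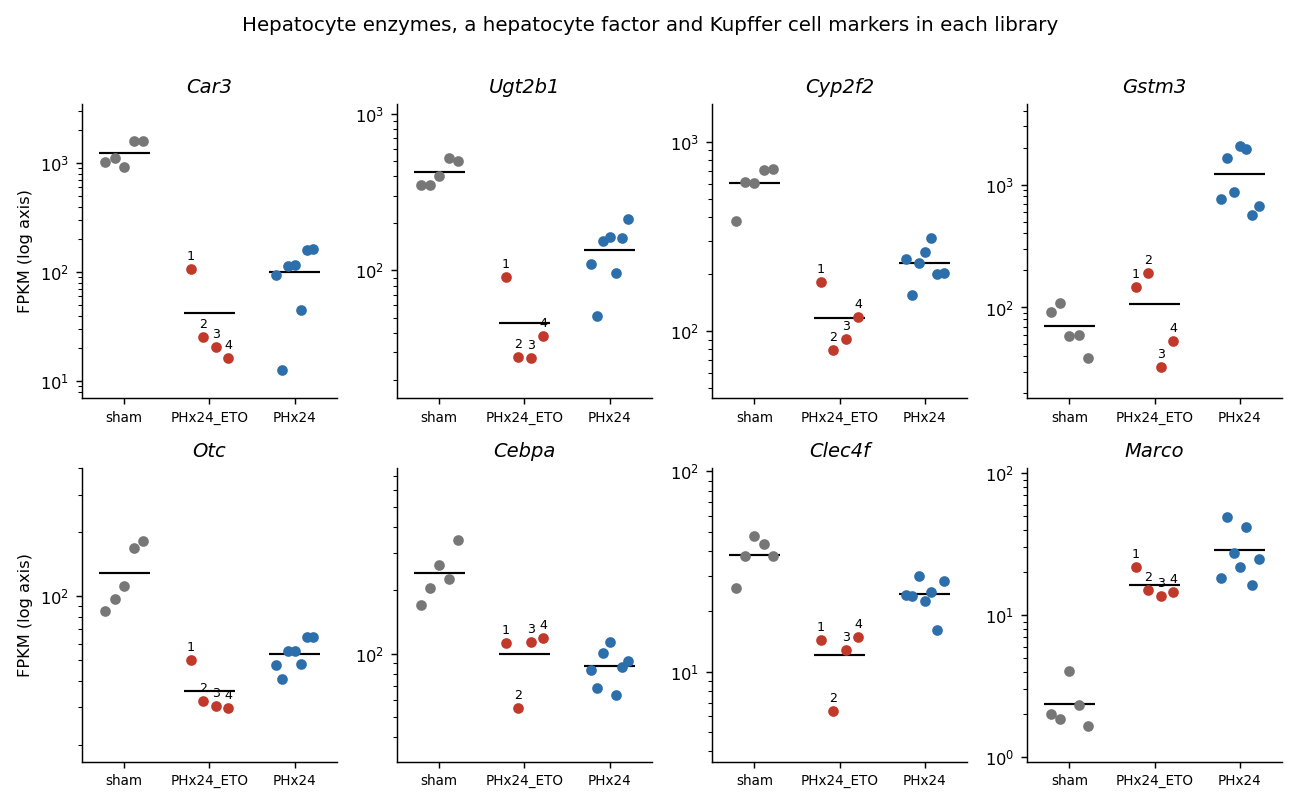
FPKM (log axis) of 6 hepatocyte genes and 2 Kupffer cell markers in each sham, PHx24_ETO and PHx24 library, with PHx24_ETO libraries numbered 1 to 4 and a bar at each group mean. Car3, Ugt2b1, Cyp2f2 and Otc lie below sham in all 4 PHx24_ETO libraries, and Gstm3 lies high in PHx24 alone.

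Hepatocytes near the portal vein and those near the central vein hold different enzymes. Of 16 periportal genes 6 were lower in PHx24_ETO than in sham and 10 were not called (median -0.15). The same count, Cyp2f2, Hal, Gls2, Ass1, Etnppl and Hsd17b6, was lower than in PHx24, and none was higher in either test. Over the list the median difference from the sham mean was -0.085, -0.92, -0.53 and -0.23 in PHx24_ETO 1 to 4. The sham libraries ran from -0.35 to 0.28, so libraries 1 and 4 lay within their range. Etnppl, a phospholyase of phosphoethanolamine, was at 16.2, 16.1, 11.1, 27 and 21.6 FPKM in sham 1 to 5, 6.83, 1.33, 2.87 and 3.51 FPKM in PHx24_ETO 1 to 4 and from 11.4 through a median of 12.4 to 19.2 FPKM in PHx24. The log2 difference was -2.33 from sham (edgeR adjusted p = 7.22e-05) and -1.97 from PHx24 (adjusted p = 0.00648). Of 18 pericentral genes 4 were higher and 2 lower than in sham, shares near those of all genes, and none differed from PHx24 at the threshold; in library 2 their median difference from sham was -1.36, against 0.17 to 0.39 in the other 3, and without library 2 8 were higher. The count of 4 was 2 without PHx24_ETO 1, 3 or 4 or sham 2 or 4.

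Of 29 genes of the urea cycle and amino acid catabolism 12 were lower and 6 higher (median -0.34; 6 lower and 5 higher in PHx24); 3 were higher without PHx24_ETO 1, PHx24_ETO 3 or sham 3. Otc, the mitochondrial enzyme that makes citrulline, was at 85.3, 96.7, 112, 169.7 and 183 FPKM in sham 1 to 5 and 50.05, 32.2, 30.6 and 29.98 FPKM in PHx24_ETO 1 to 4, without overlap (-1.84, edgeR adjusted p = 1.86e-06). The glutaminase Gls2 was at -1.82 and Ass1 at -1.18. The share of the urea cycle and amino acid list that was higher is near that of all genes tested (19.7%). Of 20 bile acid genes 9 were lower, including the importer Slc10a1 (-0.96), the export pump Abcb11 (-0.93) and Cyp27a1 of the acidic pathway (-1.31), and 3 higher, led by the basolateral exporter subunit Slc51b (4.34); without library 2 none was higher. In PHx24 8 of the 20 bile acid genes were lower and 3 higher. Cyp7a1, the rate-limiting enzyme of bile acid synthesis, did not pass the test in PHx24_ETO against sham (-0.82, edgeR adjusted p = 0.486).

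Of 33 nuclear-encoded respiratory chain genes 25 were lower and 1 higher (median -0.46; 20 lower and 1 higher in PHx24), 24 without overlap; with equal totals 10 were lower, so this count depends on the scaling. Of 16 genes of the TCA cycle 7 were lower (4 with equal totals) and 2 higher, with Sdhb, a subunit of succinate dehydrogenase, at -0.96. Of 19 glycolysis genes 4 were higher and 5 lower, and of 15 genes of gluconeogenesis and glycogen 1 was higher and 4 lower (medians 0.03 and -0.20). Over all genes tested 19.7% were higher and 15.6% lower, so the share of glycolysis rises is near that of all genes. Neither rises nor falls were tested against these shares. With 1 library left out, the glycolysis falls numbered 2 to 6. Liver pyruvate kinase Pklr was at -1.89, while lactate dehydrogenase Ldha rose by 1.14 and the glucose transporter Slc2a1 by 0.97.

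Secreted plasma proteins other than the acute-phase set were mostly lower or not called. Of 20 carrier proteins and serpins 12 were lower and 1 higher (median -0.44), with transthyretin Ttr at -1.18 and the corticosteroid carrier Serpina6 at -2.28; with equal totals, with no expression filter or in the fit of 9 libraries 7 were lower. Albumin (Alb) was at -0.74 (edgeR adjusted p = 0.0268) and missed the threshold when sham 4 or 5, the libraries with the largest albumin share, or PHx24_ETO 1, 3 or 4 was left out. Of 29 complement and coagulation genes 13 were lower and 3 higher. In PHx24 the counts were 13 lower and 2 higher, and for the carrier proteins and serpins 10 lower and 1 higher. The fetal protein gene Afp rose by 1.76, and Ly6d, a surface protein of the Ly6 family, by 4.90. Both belong to a list of 13 fetal and progenitor genes tested, of which 4 were higher and 3 lower (median -0.24). Over all genes tested 19.7% were higher and 15.6% lower. The heme synthesis enzyme Alas1 rose by 2.68. Of 17 clock genes Per1 (1.82) and Per2 (1.53) were higher and none was lower, smaller shares than over all genes; the hour at which livers were taken is not given in the labels.

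Among the largest differences from PHx24, several came with a single high library. Sult1e1, which inactivates estrogens, was at 0.806, 128, 3.39 and 1.2 FPKM in PHx24_ETO 1 to 4 and 0 to 0.333 FPKM in sham. It rose over sham by 8.02 with library 2 and 3.81 without it, and over PHx24 by 5.34 and 1.13. Mfsd2a, a carrier of lysophospholipids, was at 36.9, 232, 28.5 and 27.8 FPKM in PHx24_ETO 1 to 4, and its difference from PHx24 went from 2.79 to 1.41 without library 2; the coenzyme Q kinase gene Coq8b went from 1.69 to 0.56. Mup10 was above PHx24 through library 4 alone (5.97, and -0.41 without it). On the lower side were Cyp2c55 (-2.58), Cdca3 (-2.28) and Stmn1 (-1.76), the last 2 linked to cell division and high in library 1 of PHx24_ETO.

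The 359 calls of the direct test between PHx24_ETO and PHx24 ranged from 138 to 1199 when 1 library was left out, 1199 without PHx24_ETO 1, 138 without PHx24_ETO 2, 141 without PHx24_ETO 3, 181 without PHx24 3 and 167 without PHx24 4. DESeq2 gave 764. With the 11 libraries at 24 h alone, edgeR called none, while 2058 genes had an unadjusted p under 0.05 (16.6%). In that fit the smallest adjusted p of the genes named here were 0.0522 for Retsat and 0.0522 for Gstm3. Under every other alternative Serpina3m, Retsat, Lipc, Srebf2, Gstm3, Etnppl and Cdkn2d remained called. Genes higher in PHx24_ETO than in both other groups numbered 123 (0.994%), and genes lower than in both 97 (0.784%).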

How the data were processed

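Per the labels' protocols, liver RNA came from TRIzol extraction, and its polyadenylated part went into NEBNext Ultra libraries. The submitters' processing notes name the builds GRCm38 and mm10 and the tools HISAT2 2.0.5, DESeq2 1.20.0, featureCounts 1.5.0-p3, fastp and CASAVA 1.8. The deposited table gives a raw read count per gene and library, made by the authors, and an FPKM value, which the authors scaled by size factor and not by library total (tested on the table). The kit does not mark strand, so overlapping genes share reads, as can near-identical family members (Saa, Mup, Cyp4a, Gstm and Ugt genes).

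Groups came from the labels. Counts of the 12376 genes with at least 1 FPKM in at least 4 libraries entered 1 quasi-likelihood fit of all 27 libraries with TMM scaling (edgeR 4.0.16 under R 4.3.3); p-values were adjusted after Benjamini and Hochberg and called under 0.05. A log2 fold change divided by the square root of its F gives the SE. The procedure was tested on simulated counts that had 1 spread for all genes and no deviating library. Those counts were simpler than these data, so that run does not show how the deviating libraries affect the calls. Alternatives used DESeq2 1.42.0, limma 3.58.1 on log2(FPKM + 1), log2(FPKM + 0.1) and log2(TPM + 1), other normalizations and filters, and left-out libraries; TPM was computed by rescaling FPKM. The comparison, the 50 gene lists and 15 marker lists, and the rules below were chosen with earlier results of these data known. Named genes are the 12 largest rises and falls without overlap between groups and with a mean of at least 5 FPKM, the 2 members per list and direction with the smallest p, a fixed list of genes, and the 8 largest differences from PHx24 in each direction. Other list members, and those named for their part in a count, were chosen after their values were seen. Some genes that these rules name are not reported here. No set test was made.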

Additional observations from a re-analysis of the deposited data

Results flagged for a closer look

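Over 186 groups of values (each named gene in sham or in PHx24_ETO), 40 held a highest or lowest library whose gap to the nearest other library was large against the range of its group; chance gives about 1 in 20 for normally distributed values of unselected genes, which these are not, so the 2 shares cannot be compared. All values are FPKM, and no cause was tested.

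PHx24_ETO 2 was the high library for 11 genes: Plin2 at 919, Srxn1 at 357.5, Mfsd2a at 232.5, Sult1e1 at 128.2, Pdk4 at 71.74, Plin4 at 64.21, Cdkn1a at 42.69, Coq8b at 24.77, Ctps at 15.79, Myc at 14.84 and albumin (Alb) at 1.916e+04. In the other 3 treated libraries Plin2 was at 166.6 to 186.9, Srxn1 at 31.46 to 32.47 and Sult1e1 at 0.8059 to 3.39. It was the low library for Cebpa, at 54.98 against 112.2 to 118.9.

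PHx24_ETO 1 was high for the replication and division genes Pcna at 63.03, Cdca3 at 5.506, Ube2c at 5.639, Smc2 at 4.815 and Mki67 at 4.536, where the others had at most 21.94, 0.7792, 0.9109, 1.396 and 0.7264. It was also the least reduced for the hepatocyte genes Car3 at 107.9, Ugt2b1 at 90.94 and Otc at 50.05, and low for Serpina3m at 336 against 777.1 to 847.7. PHx24_ETO 4 was high for Mup10 at 406.4 and Mup21 at 40.68, and PHx24_ETO 3 for Mup-ps12 at 0.2223 and Tnnt3 at 0.03855, where the others were listed at 0.

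Sham 1 was high for the muscle genes Tnnt3 at 638.4, Pgam2 at 122.2 and Ldhb at 87.73, for Pdk4 at 62.59 and Plin4 at 11.72, and for Ly6d at 13.98. Sham 2 was high for Apoa4 at 126.2 and Cela2a at 93, sham 3 for Saa1 at 104.2, Marco at 4.033 and Ccne1 at 0.8517, sham 4 for Cdca3 at 1.965 and Smc2 at 0.7744, and sham 5 for Plin2 at 321.7 and Ppara at 28.68.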

How the results depend on the processing

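In 21 alternative settings for the comparison with sham, the rises numbered 1344 to 3612 and the falls 1092 to 2164 (2435 and 1927 as reported). The lowest number of rises, 1344, came from the fit of 9 libraries, and the lowest number of falls, 1092, from limma on log2(TPM + 1). DESeq2 gave 2307 and 2164. With 1 library left out, rises ranged from 2065 to 2309 and falls from 1648 to 1976. Without sham 1, sham 2, PHx24 1 and PHx48 3, which carried transcripts of other tissues, they were 1810 and 1668, and without PHx24_ETO 2 as well, a setting added after the data were seen, 1629 and 1520. Correlations of deviations were -0.023 to 0.082 for libraries with the same replicate number in the labels and -0.090 to 0.063 for different numbers. So few values cannot show whether the numbers pair the libraries. A replicate block gave 2408 and 1938 genes against sham, 323 between PHx24_ETO and PHx24, and 4309 between PHx24 and sham.

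Between PHx24_ETO and PHx24 the 359 calls became 764 with DESeq2, 196 with no filter, 0 with the 11 libraries at 24 h (edgeR; 2058 at an unadjusted p under 0.05), 138 without the 4 libraries above and PHx24_ETO 2, and 138 to 1199 with 1 library left out; limma on log2(FPKM + 1) gave 409.

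Of 93 named genes, 11 changed sign under some alternative, none of them called under both signs. On the log2 scale, without the 4 libraries and PHx24_ETO 2, Myc was at -0.249, Cpt1a at -0.173, Plin2 at -0.257, Cdkn2d at 0.311 and Cyp2c55 at 0.203, and without the 4 libraries Cpt1a was at -0.0747. With limma, Cdca3 was at -0.0322 (0.1 added) and Ppara at 0.125 (TPM); with library totals only Ppara was at 0.00115. With 1 library left out the ranges were -0.969 to 1.12 for Cdca3, -0.6 to 0.0691 for Cdkn2d, -0.221 to 1.36 for Stmn1, -0.005 to 0.255 for Cpt1a, -1.6 to 2.86 for Pdk4, -0.281 to 0.112 for Ppara, -0.0608 to 3.75 for Plin4, and, against PHx24, -0.413 to 6.39 for Mup10. The causes were not tested.

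The biological coefficient of variation was 0.266, and the 4 treated libraries differed among themselves; what the depth adds to the error was not measured. A fit that leaves out a library tests fewer samples.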
